A study of Mus musculus with 16 samples.

Results

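Macrophages exposed to thrombin were compared with macrophages given vehicle, 4 libraries against 4, out of the 16 bulk RNA sequencing libraries of a study of macrophages and platelets. The libraries were those whose labels name thrombin without platelets and those whose labels name vehicle, and every gene that passed a filter on low counts was described, which was 15610 of the 46320 genes in the table. All groups were bone marrow-derived macrophages of C57BL6/J mice, which are grown from marrow cells with M-CSF, here supplied over 7 days by medium that L929 cells had conditioned. The cells were starved in 0.5% serum for 4 hours and treated for 4 hours. The thrombin group received thrombin, at 0.1 U/mL by its sample labels and at 0.01 U/mL by the treatment protocol, so its dose is uncertain. The vehicle group received PBS. The other groups, used here only beside the thrombin result, received platelets activated with thrombin or resting platelets, in both cases purified from C57BL6/J mouse blood. The comparison asks which macrophage transcripts change when thrombin is present and platelets are not.

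Thrombin is the protease at the end of the coagulation cascade, where it cleaves fibrinogen and activates platelets. It signals to cells mainly by cutting protease-activated receptors, which couple to G proteins. Zinc inside cells is kept in balance by metallothioneins, which bind the metal, by exporters of the Slc30a family, which move it out of the cytosol, and by importers of the Slc39a family, which move it in. In mouse cells the zinc-sensing factor Mtf1 binds metal response elements in the promoters of Mt1, Mt2 and Slc30a1 when zinc is high.

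The promoters of Mt1, Mt2, Slc30a1 and Slc39a10, the zinc genes the results turn on, are shown because 3 of the 4 carry the core of that element. Each line gives the 250 bases before the start of the gene in RefSeq, on GRCm38.p6, written 5′ to 3′ on the strand of the gene. The stretches are chr8:94178839-94179088 on the plus strand for Mt1, chr8:94172368-94172617 on the plus strand for Mt2, chr1:191906531-191906780 on the plus strand for Slc30a1 and, on the minus strand for Slc39a10, chr1:46925777-46926026 at its upstream annotated start and chr1:46853619-46853868 at its downstream one. Capitals mark TGCACNC or TGCGCNC, searched on both strands.
Mt1: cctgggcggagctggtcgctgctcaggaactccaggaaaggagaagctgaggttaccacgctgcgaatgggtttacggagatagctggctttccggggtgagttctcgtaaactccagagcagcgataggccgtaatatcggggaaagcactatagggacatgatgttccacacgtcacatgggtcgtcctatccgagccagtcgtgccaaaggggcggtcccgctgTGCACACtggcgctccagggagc
Mt2: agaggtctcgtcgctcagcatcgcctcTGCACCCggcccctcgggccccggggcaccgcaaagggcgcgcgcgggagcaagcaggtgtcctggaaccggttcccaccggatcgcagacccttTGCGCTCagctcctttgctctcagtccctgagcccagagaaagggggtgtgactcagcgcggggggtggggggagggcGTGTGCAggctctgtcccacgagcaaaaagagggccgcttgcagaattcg
Slc30a1: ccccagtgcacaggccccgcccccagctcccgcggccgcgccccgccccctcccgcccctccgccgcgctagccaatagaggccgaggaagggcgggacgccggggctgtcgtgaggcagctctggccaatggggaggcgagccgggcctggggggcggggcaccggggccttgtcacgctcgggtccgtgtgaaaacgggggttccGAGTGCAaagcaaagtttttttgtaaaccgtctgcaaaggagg
Slc39a10 upstream start: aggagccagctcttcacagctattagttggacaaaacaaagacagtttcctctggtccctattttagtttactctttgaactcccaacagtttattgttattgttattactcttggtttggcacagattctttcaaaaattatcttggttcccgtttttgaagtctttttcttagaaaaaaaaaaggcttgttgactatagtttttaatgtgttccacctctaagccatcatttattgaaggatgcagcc
Slc39a10 downstream start: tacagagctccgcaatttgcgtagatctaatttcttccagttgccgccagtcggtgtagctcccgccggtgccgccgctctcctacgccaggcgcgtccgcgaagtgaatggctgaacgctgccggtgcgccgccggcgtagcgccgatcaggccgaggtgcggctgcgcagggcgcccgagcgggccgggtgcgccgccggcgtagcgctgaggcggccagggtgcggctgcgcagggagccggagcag
With the 50 bases after the start included, the Mt1 window held 3 matches, the Mt2 window 4 and the Slc30a1 window 2. Each Slc39a10 window held 0. Of all 32851 RefSeq windows of that length, 25.7% held at least 1 match, 7.114% at least 2, 1.969% at least 3 and 0.5175% at least 4. The windows of Zfp143, Cnbp, Klhl17, Plcxd2 and Slc19a2, described further on, also held 0. These are matches of letters and not measured sites.

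Thrombin libraries held 23.1 to 26.7 M counts and vehicle libraries 22.6 to 27.7 M counts, where M stands for mega. Library values are CPM, the counts of a gene per M counts of its library, on library sizes scaled by TMM, a normalization that sets the bulk of genes equal between libraries. Rose, fell and called are used where the quasi-likelihood test of edgeR gave a Benjamini-Hochberg adjusted p under 0.05 over all 15610 genes. Defining macrophage markers took 2.15% to 2.67% of counts with thrombin and 2.16% to 2.65% with vehicle. In bulk libraries such as these, fewer cells of a type and less RNA per cell cannot be told apart. Replicate 1 of the thrombin and vehicle groups carried Ddx3y of the Y chromosome at 85.1 CPM or more and Xist at 0.481 CPM or less. The other replicates of these groups had Ddx3y at 0.27 CPM or less and Xist at 1178 CPM or more. The equal replicate numbers matched libraries by this and by a correlation check, and the fit with the replicate number as a block is therefore given wherever it changes a call. No label states that the replicates are from different mice or dishes, so p-values measure the spread between these libraries.

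Of the genes called after thrombin without pairing the libraries, the largest rise and the 2 largest falls were in zinc genes. The importer gene Slc39a10 rose 3.18-fold, and the metallothionein genes Mt1 and Mt2 fell, to levels 2.51-fold and 6.97-fold lower than with vehicle. The exporter gene Slc30a1, 1.52-fold lower with thrombin, fell by the test that pairs libraries by replicate number. Slc39a10 was the only zinc transporter gene that passed without that pairing.

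Slc39a10, which lies at chr1:46846704-46964952 on GRCm39, stood at 209, 189, 180 and 188 CPM in thrombin replicates 1 to 4, against 59.5, 66.7, 58.9 and 55.4 CPM in vehicle replicates 1 to 4. The lowest thrombin library was far above the highest vehicle library. The log2 fold change was 1.67 ± 0.08 (SE), with an edgeR adjusted p of 5.66e-09. Within replicate numbers the log2 CPM difference was 1.81, 1.5, 1.61 and 1.76.

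Mt1, at chr8:94905214-94906955, had 15.4, 19.1, 16.8 and 16.9 CPM with thrombin and 41.4, 42.9, 39.1 and 47.7 CPM with vehicle. The groups did not overlap, and Mt1 fell by 1.33 ± 0.08 (SE) on the log2 scale (edgeR adjusted p = 4.56e-07). Mt2, its neighbour at chr8:94899246-94900195, had 0.722, 0.77, 0.88 and 1.55 CPM with thrombin and 6.76, 6.73, 5.64 and 8.46 CPM with vehicle. It fell by 2.80 ± 0.23 (SE) on the log2 scale (edgeR adjusted p = 8.39e-06). Thrombin replicate 4 was the highest of its group for Mt2 and still below every vehicle library. Mt3 and Mt4 had no counts in these 8 libraries and were not tested. Mtf1, which encodes the zinc-sensing factor, averaged 34.8 ± 1.86 CPM with thrombin and 32.8 ± 1.63 CPM with vehicle (SD, n = 4 each) and did not pass (edgeR adjusted p = 0.545). Of the 5 genes on the list of metallothioneins and zinc sensing, 3 were tested and 2 fell, where 0.199% of all tested genes fell.

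Slc30a1, at chr1:191638810-191645359, encodes the exporter of the plasma membrane. It had 30.9, 46.4, 37.1 and 28.0 CPM with thrombin against 48.4, 61.5, 58.1 and 49.3 CPM with vehicle. The groups did not overlap, replicate 2 was the highest of each, and thrombin was lower in 4 of 4 numbers. Without the block the log2 fold change of -0.61 did not pass (edgeR adjusted p = 0.122), and with the block Slc30a1 fell by 0.62 ± 0.05 (SE, edgeR adjusted p = 2.31e-07). Among the 10 exporter genes, 6 were tested. With the block, where 3.91% of all tested genes rose and 4.32% fell, Slc30a9 was called too. It rose by 0.13 on the log2 scale (edgeR adjusted p = 0.0206), and Slc30a4, Slc30a5, Slc30a6 and Slc30a7 had log2 fold changes of 0.03 to 0.07.

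Of the 14 importer genes, 13 were tested. Slc39a10 alone rose without the block, and with it Slc39a6 and Slc39a9 rose too. Over all tested genes 0.0897% rose without the block and 3.91% with it. Slc39a6, which encodes a partner protein of the Slc39a10 product in mouse cells, had 95.9, 87.4, 82.7 and 85.1 CPM with thrombin and 76.9, 77.5, 70.4 and 76.2 CPM with vehicle. Its log2 fold change of 0.22 ± 0.04 (SE) passed with the block (edgeR adjusted p = 0.00183; 0.119 without it). Slc39a9 averaged 92.8 ± 0.732 CPM with thrombin and 86.4 ± 3.29 CPM with vehicle (SD, n = 4 each), a log2 fold change of 0.10 with an adjusted p of 0.0467 in the blocked edgeR fit. After a further correction for GC content neither Slc39a9 (adjusted p = 0.189) nor Slc30a9 (adjusted p = 0.211) passed the edgeR test. Importer genes such as Slc39a1, at 153 ± 9.33 CPM with thrombin and 152 ± 7.51 CPM with vehicle, and Slc39a7, at 150 ± 2.62 CPM with thrombin and 152 ± 5.61 CPM with vehicle (SD, n = 4 each), did not pass.

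**Figure D1:**
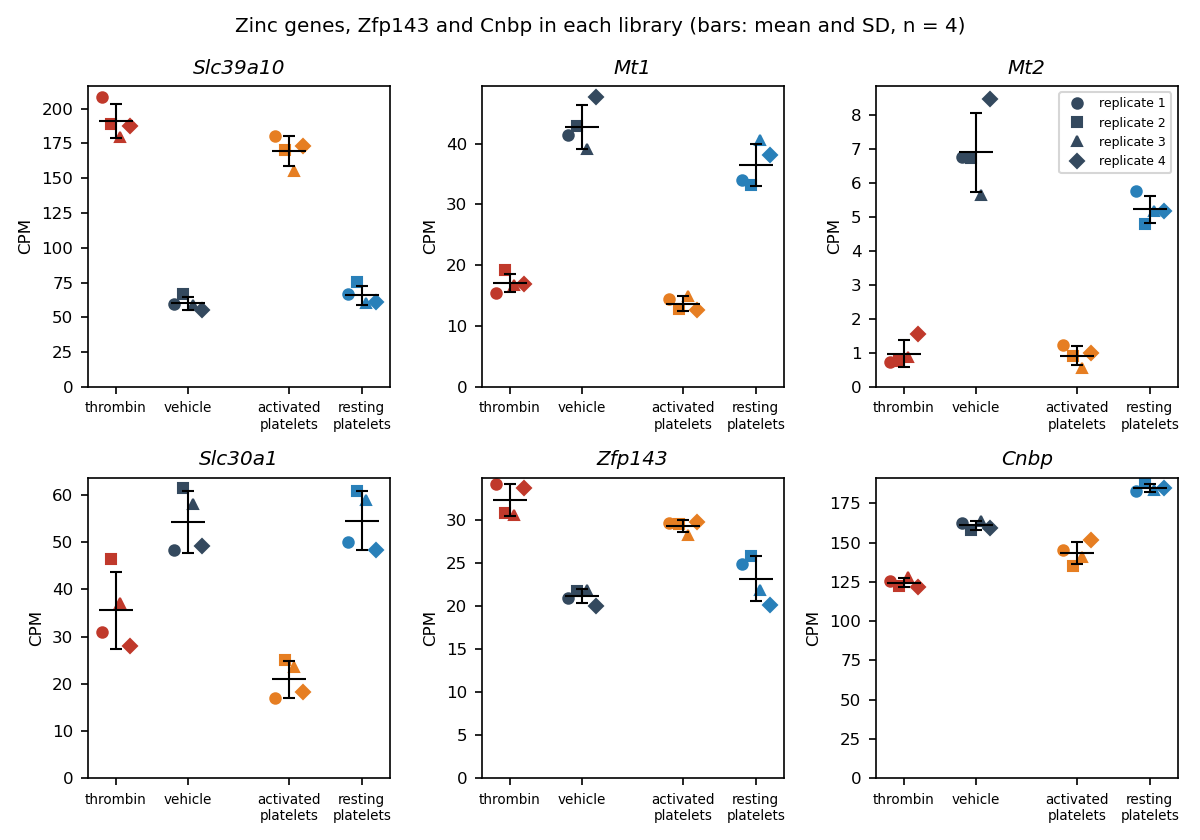
CPM of Slc39a10, Mt1, Mt2, Slc30a1, Zfp143 and Cnbp in each of the 16 libraries, with marker shapes for the replicate number and bars for the mean and SD of 4 libraries. Thrombin libraries lie between 180 and 209 CPM for Slc39a10 against at most 66.7 CPM with vehicle, and the platelet groups are split in the same direction for all 6 genes.

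Without the block 45 genes were called, 0.288% of those tested. The 14 that rose were 0.0897% of tested genes and the 31 that fell 0.199%. At an unadjusted p under 0.05 there were 1786 genes. A change of at least 1.5-fold was seen in 3 of the rises, Slc39a10, Plcxd2 and Zfp143, and in 3 of the falls, Mt2, Mt1 and Rcor2. For all 45 the thrombin and vehicle ranges were apart, from which the same sign in 4 of 4 numbers follows. The genes were called on these same values, so this adds no support to the calls. Ranges were apart for 6.68% of all tested genes, with thrombin above vehicle for 3.32% and below for 3.36%.

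Zfp143 encodes a zinc finger factor bound at many promoters. It lies at chr7:109660896-109694603 and had 34.1, 30.7, 30.6 and 33.7 CPM with thrombin against 20.97, 21.7, 21.9 and 20.02 CPM with vehicle. The groups were well apart, and Zfp143 rose by a log2 fold change of 0.61 ± 0.07 (SE, edgeR adjusted p = 0.000419). Plcxd2, at chr16:45779624-45830776, encodes a protein with a phospholipase C X domain. It had 17.01, 13.1, 15.6 and 15.8 CPM with thrombin and 10.5, 10.3, 9.08 and 9.38 CPM with vehicle, a log2 fold change of 0.65 ± 0.09 (SE, edgeR adjusted p = 0.00498). Thrombin replicate 2 was the lowest of its group and still above all vehicle libraries. Slc19a2, a thiamine transporter gene, rose to 23.9 ± 0.777 CPM with thrombin, against 17.7 ± 1.01 CPM with vehicle (SD, n = 4 each; edgeR adjusted p = 0.0298).

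Ccr1 and Il1rn also rose, the first on the list of chemokine and cytokine receptors and the other on that of anti-inflammatory feedback genes. Ccr1, a receptor for CC chemokines, had 46.1, 42.5, 39.0 and 40.3 CPM with thrombin and 30.8, 30.9, 31.8 and 31.1 CPM with vehicle. Its log2 fold change was 0.43 ± 0.08 (SE, edgeR adjusted p = 0.0404). Il1rn, the antagonist of the interleukin 1 receptor, had 39.8, 35.7, 30.8 and 34.8 CPM with thrombin and 29.4, 25.4, 26.3 and 26.5 CPM with vehicle. Its log2 fold change was 0.39 ± 0.07 (SE, edgeR adjusted p = 0.0422). Thrombin replicate 3, the lowest of its group, lay just above vehicle replicate 1. Ccdc122, which encodes a coiled-coil protein, rose by a log2 fold change of 0.41. Krr1, of ribosome assembly, Rbm18, of RNA binding, Stam2, of endosomal sorting, Cul3, the scaffold of ubiquitin ligases, and Ptgr2, a prostaglandin reductase, had log2 fold changes of 0.25, 0.24, 0.20, 0.20 and 0.19. The predicted gene Gm44705 and Akap11, an anchor of protein kinase A, were the other 2 rises.

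Cnbp, at chr6:87819597-87828088, encodes a zinc finger protein that binds single-stranded nucleic acids. It had 125, 123, 128 and 122 CPM with thrombin and 163, 158, 164 and 159 CPM with vehicle. Cnbp fell by 0.37 ± 0.04 (SE) on the log2 scale (edgeR adjusted p = 8.26e-05), and by 0.37, 0.37, 0.36 and 0.38 within the 4 replicate numbers. Klhl17, at chr4:156313501-156319314, encodes a Kelch protein known from rat to bind actin. It had 18.8, 20.4, 21.7 and 19.1 CPM with thrombin and 29.9, 29.3, 28.0 and 26.6 CPM with vehicle, and fell by 0.51 ± 0.07 (SE) on the log2 scale (edgeR adjusted p = 0.00312).

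The other falls are given with what each gene encodes. Rcor2, a corepressor gene, had 1.36, 0.924, 1.23 and 1.51 CPM with thrombin and 2.505, 2.14, 2.38 and 2.93 CPM with vehicle. It fell by 0.98 on the log2 scale (edgeR adjusted p = 0.042). Cbx6, a Polycomb component, fell by 0.47, and the zinc finger genes Zfp422 and Zfp715 fell by 0.36 and 0.30. Ubtf, a factor of RNA polymerase I, Med25, of the Mediator complex, Nfic, and the acetyltransferase gene Kat2a fell by 0.25, 0.25, 0.20 and 0.20. Further falls were in Pigo, of GPI anchor synthesis, Miga2, of mitochondrial fusion, Tmem201, of the inner nuclear membrane, Traf3ip1, of cilium transport, and Mast3, a kinase gene. Their log2 fold changes were -0.45, -0.40, -0.39, -0.39 and -0.39. Tmco4, Pdlim4, Chpf2, Tshz1, Bag5, Map4k2, Flot1, Trim47, Pak4, Gsto1, Hectd4 and Rps6ka4 had log2 fold changes of -0.44 to -0.19. Cd14, the coreceptor for lipopolysaccharide, had 171, 162, 182 and 183 CPM with thrombin against 200, 200, 240 and 216 CPM with vehicle. It fell by 0.29 ± 0.06 (SE) on the log2 scale (edgeR adjusted p = 0.0447).

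The 45 calls were not equally firm. Without thrombin replicates 1 to 4 in turn, 7, 12, 21 and 10 genes were called, and without vehicle replicates 1 to 4, 8, 10, 27 and 11. The 7 genes called in each of these 8 fits were Slc39a10, Mt1, Mt2, Zfp143, Cnbp, Klhl17 and Plcxd2. In these edgeR fits the adjusted p ran up to 0.104 for Slc19a2, 0.139 for Rcor2, 0.145 for Ccr1 and for Il1rn and 0.162 for Cd14. With replicate 1, 2, 3 or 4 left out of every group, 4, 6, 9 and 6 genes were called. Slc39a10, Mt1, Mt2 and Cnbp were among them each time, and the edgeR adjusted p of Zfp143 was 0.0647 without replicate 1.

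**Figure D2:**
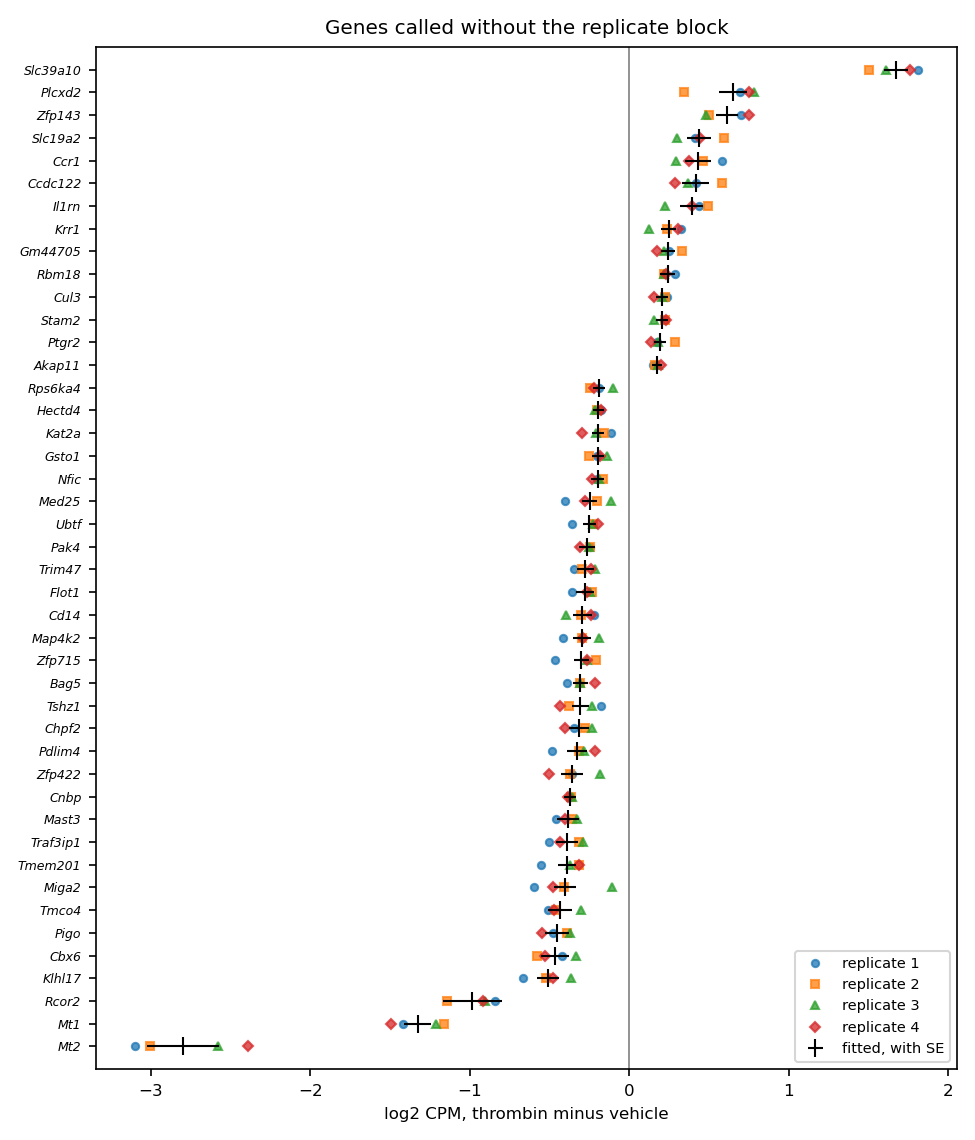
Log2 CPM difference, thrombin minus vehicle, within each replicate number for the genes called without the block and reported here, with the fitted log2 fold change and its SE in black. All 4 points of every gene lie on the same side of 0, and Slc39a10, Mt1 and Mt2 stand far from the rest, most of which lie within 0.5 of 0.

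Pairing libraries by replicate number raised the count to 1285 called genes, 8.23% of those tested, of which 610 rose (3.91%) and 675 fell (4.32%). All 45 genes called without the block were among them. The changes were small, with a median absolute log2 fold change of 0.17 for the rises and 0.18 for the falls, and at least 1.5-fold in 31 rises and 16 falls. Leaving out replicate numbers 1 to 4 in turn left 252, 648, 1111 and 432 calls, and 191 genes were called in all 4 of these fits.

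A GC correction added to the block removes from each library its trend of log2 CPM over gene GC content. It left 433 called genes (2.77%), 264 higher (1.69%) and 169 lower (1.08%), and 328 of them were also called with the block alone. Without replicate numbers 1 to 4 this fit called 121, 299, 198 and 109 genes. Of the 45 genes called without the block, 38 were also called here. The 7 that were not included Bag5, Pak4, Nfic, Kat2a and Rps6ka4, with GC contents of 57.6% to 63.3%, and Akap11, with 42.6%. Slc39a10, Mt1, Mt2, Zfp143 and Cnbp had log2 fold changes of 1.6, -1.28, -2.77, 0.57 and -0.42 with this correction.

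Some of the largest changes called with block and correction belonged to genes whose level differed widely between replicate numbers. Fst, which encodes follistatin, an activin-binding protein, had 10.3, 5.55, 5.37 and 7.09 CPM with thrombin against 7.23, 2.68, 4.21 and 4.42 CPM with vehicle. The groups overlapped, thrombin was higher in 4 of 4 numbers, and the log2 fold change with the block was 0.62 ± 0.11 (SE, edgeR adjusted p = 0.00219; 0.566 without the block). Nexn, which encodes the actin-binding protein nexilin, had 21.5, 12.0, 13.4 and 21.9 CPM with thrombin and 14.7, 6.73, 9.74 and 15.5 CPM with vehicle. It rose with the block by 0.57 ± 0.07 on the log2 scale (SE, edgeR adjusted p = 2.91e-05; 0.572 without the block). Eda2r, a receptor of the tumour necrosis factor receptor family, rose by 0.53 (edgeR adjusted p = 0.00038 with the block; 0.332 without). Trmt10a, a tRNA methyltransferase gene, and Zfp341 just missed the threshold without the block (edgeR adjusted p = 0.0509 and 0.0551) and rose with it by 0.54 and 0.48.

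Ptx3, which encodes the long pentraxin, had 10.4, 5.85, 4.09 and 5.77 CPM with thrombin and 16.7, 7.82, 6.19 and 10.6 CPM with vehicle. The groups overlapped, replicate 1 was the highest of each, and Ptx3 fell with the block by 0.65 ± 0.11 on the log2 scale (SE, edgeR adjusted p = 0.000995; 0.484 without the block). Hspa1b, an inducible Hsp70 gene, fell with the block by 0.54 (edgeR adjusted p = 0.00786; 0.459 without), while Bmyc and Lrfn4 fell by 0.52 and 0.51 (edgeR adjusted p = 0.0019 and 0.000593; 0.0928 and 0.0534 without).

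The same agent was also present in cultures with platelets, in libraries that the thrombin and vehicle groups do not share. By the data these libraries matched the others by replicate number, and all entered the same fit, so the contrasts are not fully independent. In the platelet cultures, activated platelets were set against resting platelets, a contrast in which thrombin and platelet activation cannot be told apart. It called 2472 genes (15.8%; 7.34% higher and 8.49% lower). Of the 14 genes that rose with thrombin alone, 5 also rose there, Slc39a10, Zfp143, Slc19a2, Ccr1 and Il1rn. Of the 31 that fell, 12 also fell, Mt1, Mt2, Rcor2, Klhl17, Cbx6, Tmco4, Cnbp, Zfp422, Bag5, Zfp715, Gsto1 and Hectd4. These 17 were 37.8% of the genes called for thrombin and 0.688% of those called between the platelet groups. A further 6 were called in the opposite direction and 22 were not called. With the block, 34.5% of tested genes were called between the platelet groups, and 20 of the 45 had the same direction and 8 the opposite one.

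Slc39a10 averaged 170 ± 10.7 CPM with activated platelets and 65.7 ± 6.99 CPM with resting platelets (SD, n = 4 each), a log2 fold change of 1.37 (edgeR adjusted p = 2.5e-08). Mt1 averaged 13.7 ± 1.16 CPM with activated and 36.5 ± 3.44 CPM with resting platelets, and Mt2 0.917 ± 0.288 CPM with activated and 5.23 ± 0.401 CPM with resting platelets (SD, n = 4 each). They fell by 1.41 and 2.5 on the log2 scale (edgeR adjusted p = 5.1e-08 and 2.41e-06). The interaction, the platelet contrast minus the thrombin contrast, was called for 20 of the 45 genes and for 9.93% of all tested genes (29.1% with the block). The 45 genes were called on thrombin and vehicle values that also enter the interaction. Their share therefore cannot be compared with that of all tested genes. The interaction was -0.09 for Mt1 and 0.30 for Mt2 and did not pass (edgeR adjusted p = 0.723 and 0.621). For Slc39a10 it was -0.30, with an edgeR adjusted p of 0.0824 without the block and 0.00241 with it. Slc30a1 averaged 20.98 ± 3.91 CPM with activated platelets and 54.6 ± 6.21 CPM with resting platelets (SD, n = 4 each). It fell by 1.38 on the log2 scale (edgeR adjusted p = 1.82e-05), further than with thrombin alone, with an interaction of -0.77 (edgeR adjusted p = 0.031; 1.07e-07 with the block). Slc39a6 went the other way, with a log2 fold change of -0.21 between platelet groups and an interaction of -0.43 (edgeR adjusted p = 0.0027).

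Outside the zinc genes, Cnbp fell by the same 0.37 on the log2 scale between platelet groups (edgeR adjusted p = 5.02e-06), and Slc19a2 rose by 0.46 (edgeR adjusted p = 0.000531). Zfp143 rose by 0.34, with an interaction of -0.27 that passed with the block (edgeR adjusted p = 0.0186) and missed without it (0.0835). Il1rn rose by 0.82, more than the 0.39 with thrombin alone (interaction 0.43, edgeR adjusted p = 0.0158). Plcxd2 did not pass there (log2 fold change -0.08, edgeR adjusted p = 0.625), and its interaction was -0.73 (edgeR adjusted p = 0.00207). Cd14 had 701 ± 10.7 CPM with activated platelets and 256 ± 11.9 CPM with resting platelets (SD, n = 4 each). That rise of 1.45 on the log2 scale is opposite to its fall with thrombin alone, and the interaction was 1.75 (edgeR adjusted p = 9.71e-09). Ccdc122, Ptgr2, Stam2 and Med25 were also called in the opposite direction.

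**Figure D3:**
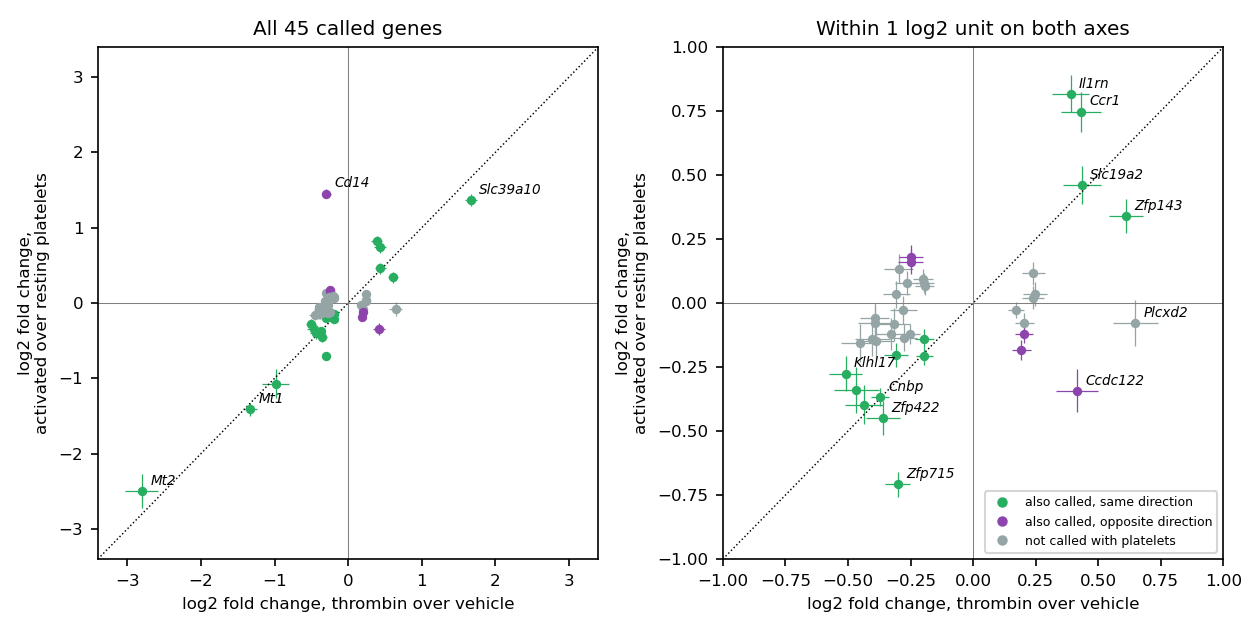
Log2 fold change of activated over resting platelets against that of thrombin over vehicle for the 45 called genes, with SE bars, all genes on the left and those within 1 log2 unit on the right. Slc39a10, Mt1, Mt2 and Cnbp lie near the dotted line of equal change, while Cd14 at 1.45 on the vertical axis and -0.29 on the horizontal one lies far from it.

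The genes of the protease-activated receptor family had low CPM or too few counts to be tested. F2r, the main thrombin receptor of many cells, had 3.17, 2.89, 2.90 and 3.85 CPM with thrombin and 2.93, 3.27, 4.50 and 4.28 CPM with vehicle. The groups overlapped, and the log2 fold change of -0.23 did not pass (edgeR adjusted p = 0.778). F2rl2 averaged 0.0709 CPM with thrombin and 0.161 CPM with vehicle and did not pass. F2rl1 had 2 counts over the thrombin libraries and 4 over the vehicle libraries, and F2rl3 had 7.5 over the thrombin libraries and 15 over the vehicle libraries, too few to be tested. Of 24 tested genes of receptors and G protein coupling, 0 were called without the block. At an unadjusted p under 0.05 in that edgeR fit 3 were up and 3 down, as were 865 and 921 of all 15610 tested genes. With the edgeR block 2 rose and 3 fell, where 3.91% of all tested genes rose and 4.32% fell. Rgs1, an inhibitor of G protein signalling, had 63.9, 65.1, 47.6 and 56.2 CPM with thrombin and 41.4, 46.0, 43.6 and 46.4 CPM with vehicle. Its log2 fold change of 0.39 passed with the block and with the GC correction (edgeR adjusted p = 0.00255 and 0.0347) and missed without (0.0604). The G protein genes Gnai2 and Gnai3 and the guanine nucleotide exchange factor gene Arhgef1 passed with the block at log2 fold changes of -0.13, 0.13 and -0.18, and after the GC correction they did not.

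Il1b, the gene of interleukin 1 beta, had 1.605, 1.43, 2.33 and 1.51 CPM with thrombin against 0.966, 2.77, 3.70 and 2.35 CPM with vehicle, and did not pass (edgeR adjusted p = 0.587; 0.192 with the block). Tnf had 11.6, 12.6, 9.99 and 10.3 CPM with thrombin and 15.3, 17.4, 12.8 and 11.7 CPM with vehicle. It was lower with thrombin in 4 of 4 numbers and did not pass (edgeR adjusted p = 0.618; 0.123 with the block). Il6 had 5 counts over the thrombin libraries and 9 over the vehicle libraries and was not tested. Of 20 tested inflammatory cytokines and NF-kB targets, 1 fell with the block, Bcl3, a nuclear regulator of NF-kB, where 4.32% of all tested genes fell. Bcl3 had 18.8, 21.8, 22.9 and 18.9 CPM with thrombin and 24.9, 28.2, 27.01 and 25.4 CPM with vehicle, with no overlap, and fell by 0.36 on the log2 scale (edgeR adjusted p = 0.0013; 0.197 without the block). Of 15 chemokine genes, 0 were called in any of the 3 edgeR fits, without the block, with it, or with block and GC correction, and 0 had an unadjusted p under 0.05 without the block. Of 26 immediate early genes, 0 were called without or with the block, 0 had an unadjusted p under 0.05 without the block, and Klf4 alone rose with block and GC correction (log2 fold change 0.35, edgeR adjusted p = 0.0383). The 28 interferon-stimulated genes had a median log2 fold change of -0.18, against 0.01 for all tested genes, with 1 fall with the block, Zbp1, a sensor of nucleic acids in Z form. Zbp1 fell by 0.36 on the log2 scale with the block (edgeR adjusted p = 0.0309) and passed neither after the GC correction (0.0907) nor without the block (0.211).

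Of 18 targets of SRF and YAP, Ccn2 and Ankrd1 rose and Ajuba fell with the block, where 3.91% of all tested genes rose and 4.32% fell. With block and GC correction Ccn2 and Ajuba were called and Ankrd1 was not, where 1.69% of all tested genes rose and 1.08% fell. Ccn2, a matricellular growth factor gene, had 686, 410, 457 and 671 CPM with thrombin and 592, 316, 365 and 535 CPM with vehicle, a log2 fold change of 0.31 ± 0.04 (SE, edgeR adjusted p = 0.000374 with the block; 0.742 without).

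Stromal marker genes took 0.701%, 0.340%, 0.379% and 0.592% of counts in thrombin replicates 1 to 4 and 0.734%, 0.348%, 0.408% and 0.630% in vehicle replicates 1 to 4. Replicates 1 and 4 were high in that share, as they were for Ccn2 and Nexn in both groups, and the share was lower with thrombin in 4 of 4 numbers, opposite to those genes. None of the 12 stromal markers was at 0, and Col1a1, a collagen gene, fell with the block by 0.18 on the log2 scale (edgeR adjusted p = 0.0205) and did not pass after the GC correction. The part of stromal cells in these values was not tested. Platelet and megakaryocyte markers took 0.0296% to 0.0318% of counts with thrombin and 0.0275% to 0.0334% with vehicle, with 2 of the 17 markers, Gp9 among them, at 0 in all 8 libraries. Lymphocyte markers took 0.00225% to 0.00398% with thrombin and 0.00234% to 0.00449% with vehicle, lower with thrombin in 4 of 4 numbers, with Cd3e, Cd3g and Nkg7 at 0. Of the 4 lymphocyte markers tested, Ighm, the gene of the immunoglobulin M heavy chain, fell with the block by 0.30 on the log2 scale (edgeR adjusted p = 0.0119; 0.764 without the block) and passed after the GC correction too (0.0273). Among all tested genes 4.32% fell with the block and 1.08% with block and GC correction. The part of lymphocytes in the results was not tested.

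Among 29 cell cycle genes, 1 rose and 4 fell with the block, where 3.91% of all tested genes rose and 4.32% fell. After the GC correction 1 rose and 3 fell, against 1.69% and 1.08% of all tested genes. Cdkn1a, the inhibitor of cyclin-dependent kinases p21, had 297, 320, 266 and 301 CPM with thrombin and 264, 264, 227 and 242 CPM with vehicle. The groups were apart, and Cdkn1a rose by 0.25 ± 0.03 (SE) on the log2 scale (edgeR adjusted p = 8.6e-05 with the block; 0.152 without). Mcm5, of the replicative helicase, averaged 55.9 ± 5.93 CPM with thrombin and 65.0 ± 6.12 CPM with vehicle (SD, n = 4 each) and fell by 0.22 with the block (edgeR adjusted p = 0.00285; 0.353 without). Of 20 macrophage identity genes, 2 fell with the block, Cd14 among them, and Mertk and Cd36 rose. After the GC correction Cd14 alone of these was called, and 1 other identity gene rose.

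The other lists were counted with the block, where 3.91% of all tested genes rose and 4.32% fell, and with block and GC correction, where 1.69% rose and 1.08% fell. Over all genes, 328 of the 1285 calls with the block were also made with the correction. Of 23 glycolysis and hypoxia genes, 4 fell with the block, among them Pfkl and Eno1, and 0 were called with the correction. Of 21 NRF2 antioxidant genes, 5 fell and 1, G6pdx, the first enzyme of the pentose phosphate pathway, was still called. Of 38 nuclear genes of the respiratory chain, 1 rose and 3 fell, and 0 were called with the correction. Of 16 genes of iron and copper handling, 3 rose, including the transferrin receptor gene Tfrc (log2 fold change 0.21), 1 fell, Slc11a1, and 0 were called with the correction.

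Of 14 heat shock genes, 1 rose and 2 fell with the block, and Hspa1b alone was called with the correction. Of 19 genes of the integrated stress response, 2 rose and 1 fell, and 0 were called with the correction. Of 23 sterol synthesis genes 1 rose, Sc5d, and 0 were called with the correction. Of 23 chemokine and cytokine receptor genes, 2 rose and 1 fell, and Ccr1 alone was called with the correction. Of 20 genes of cholesterol export and lipid handling, 3 rose and 1 fell with the block, and 2 rose with the correction. Of 25 lysosome and autophagy genes, 3 rose and 1 fell with the block, and 2 rose with the correction. Of 43 cytosolic ribosomal protein genes, 2 fell with the block and 2 others rose with the correction. Of 17 anti-inflammatory feedback genes Il1rn alone rose, in both fits. Of 12 partners of Zfp143 in transcription, itself included, Zfp143 rose and Hcfc1 fell, and Zfp143 alone was called with the correction. Npc1, of lysosomal cholesterol transport, rose by 0.14 and by 0.10 after the correction (edgeR adjusted p = 0.00356 and 0.0314).

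**Figure D4:**
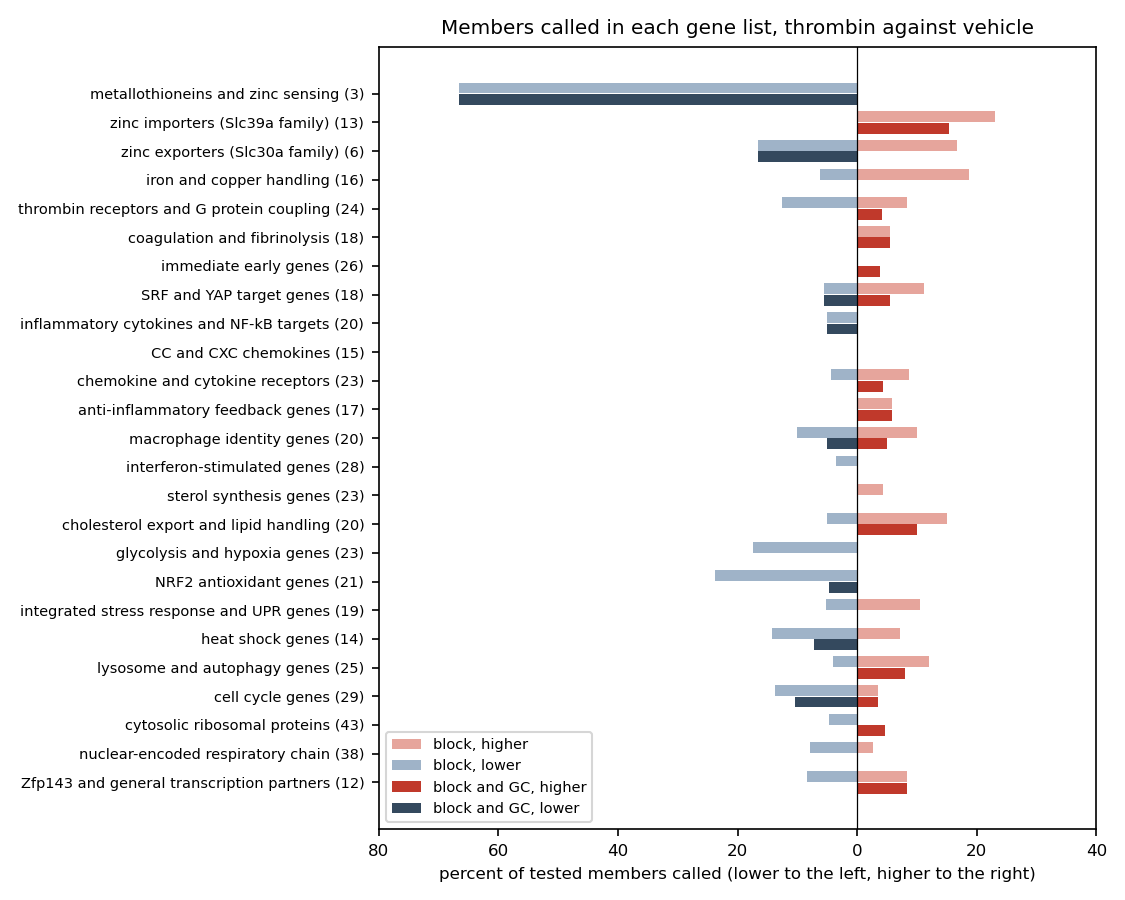
Percent of tested members called in each gene list, higher to the right and lower to the left, in the edgeR fit with the replicate block (pale) and with block and GC correction (dark), with the number of tested members in brackets. The bars of metallothioneins and zinc sensing, 2 of 3 tested genes, remain under both fits, while those of glycolysis and hypoxia genes, 4 of 23, are absent in the dark fit.

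The small shifts followed GC content. Across the 14776 genes with a GC value, which all come from the same 8 libraries, Spearman's correlation between GC content and log2 fold change was -0.449, and -0.461, -0.334, -0.143 and -0.304 within replicate numbers 1 to 4. Over 5 equal bins of genes, from the lowest to the highest GC content, the median log2 fold change was 0.07, 0.04, 0.01, -0.04 and -0.09. With the block, 320 genes of the lowest bin rose and 6 fell, and 17 genes of the highest bin rose and 429 fell. Genes that rose with the block had a median GC content of 44.8% and those that fell 57.3%, against 50.5% for all tested genes. With block and GC correction both medians were 52.1%, the correlation was 0.02, and the highest bin held 65 rises and 51 falls. The correction takes the GC trend out of each library, so the low correlation and the more even bins are built into it.

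The shifts followed exon length less closely than GC content. Spearman's correlation with exon length was 0.06 over 15610 genes, and 0.18, 0.04, -0.03 and -0.01 within replicate numbers 1 to 4, so that replicate 1 had the largest value. A length correction with the block kept 1222 of the 1285 blocked calls. The libraries themselves differed in their GC trend: the Spearman correlation between GC content and a library's log2 CPM, taken relative to the gene's mean, was -0.266 to -0.0524 in thrombin libraries and -0.0482 to 0.283 in vehicle libraries, without overlap. Between the platelet groups the trend had the other sign, with a correlation of 0.21 for activated over resting platelets. Whether the GC trend comes from library preparation or from the cells was not tested.

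**Figure D5:**
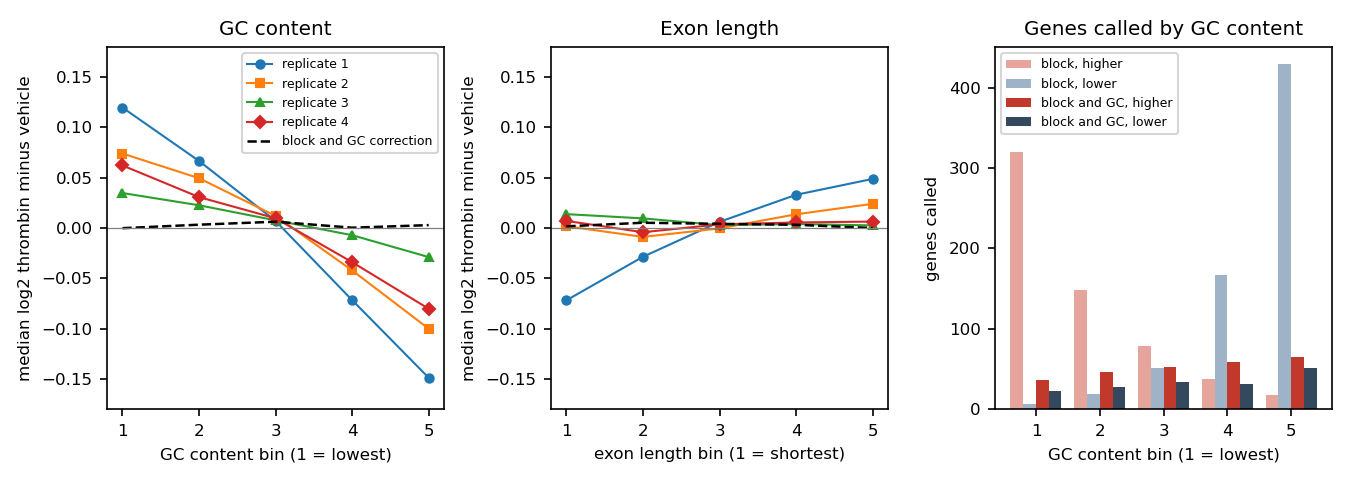
Median log2 CPM difference, thrombin minus vehicle, by bin of gene GC content (left) and exon length (middle) for each replicate number, with the fit with block and GC correction as a dashed line, and the number of called genes by GC bin (right). The GC lines fall in all 4 replicate numbers, most steeply in replicate 1, and of the genes that fell with the block 429 are in the highest GC bin.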

How the data were processed

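Bulk RNA was sequenced from stranded poly(A) libraries, per the labels' protocols. The authors deposited counts per gene with no normalization, taken as estimated counts since 25.5% of the values above 0 were not whole. Whole counts had been assumed when the tests were chosen. The submitters' processing notes name cutadapt 2.5, STAR 2.7.2b, featureCounts 1.6.4 and the builds GRCm39 and mm10. The strand and multi-mapping settings are given in none of these sources, so overlapping, antisense and near-identical genes such as Hba-a1 and Hba-a2 are uncertain. Gene coordinates are the file's, on GRCm39.

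Counts were rounded, which altered the 25.5% of values above 0 that were not whole and came to 0.00734% of all counts. They were then filtered with filterByExpr by group and scaled by TMM. edgeR 4.0.16 in R 4.3.3 fitted its robust quasi-likelihood model to all 16 libraries as 4 groups, with two-sided p-values adjusted over 15610 genes. Log2 CPM used a prior count of 2. Library sizes of 22.6 to 30.6 M counts (M, mega) set the counting precision. Same-number libraries, after removal of group means, had correlations of 0.29 to 0.617 in 24 pairs, against -0.436 to 0.253 in other pairs, and each of the 16 was closest to a library with its number. Numbers were thus treated as pairs, on the evidence of the data and not of a label. Replicates of a group differed by 9.28 to 28.4 chi-square per degree of freedom, above counting noise. GC content, from GENCODE M21 transcripts, was at hand for 94.7% of tested genes. GC and length were corrected by lowess per library (span 0.3). Promoters were taken from RefSeq tables on GRCm38.p6, which match no deposited coordinates. Fits were also run on simulated data with planted changes, replicate effects and a GC trend, and no result of that is given here.

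The genes and lists were chosen with earlier results of these data known. Named were the 12 largest rises and 12 largest falls called without the block at 5 CPM or more, the 8 largest each way called with block and GC correction, all tested zinc genes, up to 2 genes each way per list, and the receptor and cytokine genes. Other named genes were chosen after their values were seen, and some genes are not reported here. Alternatives were other scalings, filters, tools (DESeq2 1.42.0, limma-voom in limma 3.58.1), designs, corrections and left-out libraries.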

Additional observations from a re-analysis of the deposited data

Results flagged for a closer look

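In 104 groups of 4 libraries from 52 named genes, 4 held a library far from the other 3, and chance alone gives about 1 such group in 20. Traf3ip1 stood at 8.59 CPM in vehicle replicate 2, below the 9.03 to 9.11 CPM of the others. Miga2 stood at 11.2 CPM in vehicle replicate 3, against 13.2 to 13.3 CPM, and Slc39a9 at 81.5 CPM in vehicle replicate 1, against 87.5 to 88.6 CPM. Slc30a6 stood at 15.7 CPM in thrombin replicate 1, above 15.1 CPM in the others.

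For 12 of these genes the platelet and thrombin contrasts differed by the interaction test of edgeR, which called 9.93% of all tested genes. Many of these genes were named for their thrombin values, which also enter this test, so the shares cannot be compared. The test had no GC correction, and the GC trend had opposite signs in the contrasts. Each difference is the log2 fold change of activated over resting platelets minus that of thrombin over vehicle. This signed difference was 0.43 for Il1rn (adjusted p = 0.0158), 0.34 for Tmem201 (0.0163) and 0.18 for Slc39a7 (0.0407). For Tmem201 the log2 fold change was -0.39 with thrombin alone and -0.06 between platelet groups, so the fall was smaller with platelets. The difference was -0.77 for Slc30a1 (0.031), -0.76 for Ccdc122 (0.00104), -0.73 for Plcxd2 (0.00207) and -0.43 for Slc39a6 (0.0027). It was -0.38 for Ptgr2 (0.000527), -0.32 for Stam2 (0.00129), -0.28 for Cul3 (0.00339), -0.27 for Slc30a5 (0.0486) and -0.22 for Rbm18 (0.0358).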

How the results depend on the processing

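The 45 calls for thrombin against vehicle became 160 with DESeq2 (64 higher, 96 lower), 11 with thrombin and vehicle libraries alone and 14 with a GC correction and no block (6 higher, 8 lower). With the replicate block they became 1285, with the block on thrombin and vehicle libraries alone 1746, with block and GC correction 433, and with block and length correction 1347. Leaving out 1 replicate in turn gave 4 to 27 calls without the block. Leaving out numbers 1 to 4 gave 252, 648, 1111 and 432 calls with the replicate block, and 121, 299, 198 and 109 with block and GC correction, a fit added after seeing the data. With no filter on low counts 30 genes were called, 6 higher and 24 lower, 29 of them among the 45. RLE scaling, limma-voom and a length correction called 45, 43 and 51 genes, with 43, 42 and 44 of the 45 among them. The sign of all 45 was kept in each of these settings, and 42 were called by DESeq2, which gave the other 3, Mt2 among them, no adjusted p. The 17 of 45 genes also called the same way between platelet groups became 265 of 1285 with the replicate block. With replicate numbers 1 to 4 left out in turn, and no block, they were 4 of 4, 5 of 6, 7 of 9 and 6 of 6. For the 116 named genes, 2874 of 3564 values kept direction and side of the threshold, 414 newly passed, 276 no longer passed and 0 passing values changed sign. Why counts move between designs was not tested. Depth limits genes such as Il6, F2rl1 and F2rl3, which had too few counts to test. The uncertain thrombin dose, the pairing by data and the GC trend limit what small fold changes show.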
